A study of Homo sapiens with 60 samples.

Results

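The levels of 8 transcription factor genes that are textbook regulators of the hepatocyte were followed in HepG2 cells given herbal extracts. The members are HNF4A, FOXA1, FOXA2, FOXA3, CEBPA, CEBPB, PROX1 and NR5A2, and they were chosen by name, as the rows of the count table whose Ensembl gene ID maps to these symbols. All 8 were found among the 60675 genes of the table, and all 8 passed the filter on low counts, which kept 16675 genes. HepG2 is an established human cell line from a liver tumour that still makes many liver proteins.

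These factors work as a network in which most members bind and regulate each other's genes. FOXA1, FOXA2 and FOXA3 are forkhead proteins that can bind closed chromatin and open it for other factors. HNF4A is a nuclear receptor that acts as a dimer and is needed for the expression of a large share of liver genes. CEBPA and CEBPB belong to the same leucine zipper family and bind the same DNA sites. CEBPA is known for the mature, non-dividing hepatocyte and CEBPB for the acute phase, regeneration and stress. NR5A2 is a nuclear receptor known for the control of bile acid and cholesterol genes, and PROX1 is a homeobox protein known in liver as a corepressor of HNF4A and NR5A2.

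Each group was HepG2 treated for 24 h, with no genetic change named in the labels. The 3 vehicle libraries received DMSO alone, given as 0.1% in the sample labels and as 2% in the series text. All 8 extracts were made with ethanol, 6 from single plants and 2 from formulas. Coptidis Rhizoma and Bupleuri Radix were given at 280, 56 and 11.2 µg/mL. Aconiti Lateralis Radix Preparata, Cimicifugae Rhizoma, Citri Unshius Pericarpium and Zizyphi Fructus were given at 500, 100 and 20 µg/mL, as were the formulas Yijung-tang and Banhasasim-tang. These concentrations are called the high, medium and low dose. The high dose was the concentration that inhibits growth by 20% where that lay under 500 µg/mL, as for Coptidis and Bupleuri. Citri, Cimicifugae, Bupleuri and Aconiti had 3 libraries per dose. Coptidis, Zizyphi and Yijung-tang had 2, and Banhasasim-tang had 1. The labels do not say that libraries of a group came from separate cultures, so the p-values cover only variation among the libraries at hand, which can be of technical origin.

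Levels are CPM, counts scaled to library size, after TMM, a method that sets libraries to a common level over most genes. A gene was called higher or lower at an adjusted p under 0.05 in edgeR's quasi-likelihood test. In the titles the vehicle libraries form a separate set (D1), and the extracts fall into sets 11 (Coptidis and Zizyphi), 12 (Citri and Cimicifugae), 13 (Bupleuri and Aconiti) and 14 (the formulas). Against vehicle, set and treatment therefore cannot be told apart. High against low dose stays within a set. For Coptidis and Zizyphi the titles and descriptions give different batch letters (D and C), which was not settled here. Library totals ran from 18015555 to 29549531 counts. Some libraries stood apart. In the 3 vehicle libraries the deviation of genes from their mean over all libraries fell with GC content (correlation across genes -0.358 to -0.287). In 55 of the extract libraries that correlation was -0.191 to 0.243. The Banhasasim-tang low-dose library had a correlation of 0.69 and the lowest total. Replicate 3 of the Bupleuri low dose had a correlation of -0.384 with transcript length, against -0.137 to 0.128 in the 55. All 7 hepatocyte markers were above 1 CPM in vehicle. Their summed level was 40780 to 41350 CPM in vehicle and 24820 to 25680 in the Coptidis high dose. Among markers of other cells, CFTR, PTPRC, HBB, KDR and COL1A2 were at 0 in vehicle. The summed bile duct markers (3 of 5 above 1 CPM) had 485.8 to 503.6 CPM in vehicle and 738.8 to 786.2 in the Coptidis high dose. KRT19 carried most of this, with means of 152.4 and 412.6 CPM, while SOX9 had 196.7 and 222. EPCAM, the other one above 1 CPM, had 145.1 in vehicle. Its means over the replicated groups ran from 111.1 (Coptidis medium dose) to 159.6 CPM (Bupleuri low dose). The blood markers (1 of 3, CD68) had 29.28 to 32.22 and 78.54 to 79.81 CPM. The fibroblast or stellate markers (2 of 4, ACTA2 and PDGFRB) had 59.43 to 63.02 and 65.68 to 71.04 CPM. The endothelium markers (1 of 3, PECAM1) had 3.141 to 3.749 and 2.145 to 3.481 CPM. The part of these shifts in the results below was not tested. In bulk RNA, fewer cells of a kind and less RNA per cell cannot be told apart.

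The promoters of CEBPA, CEBPB, FOXA1 and NR5A2 are printed here because their levels moved in opposite directions under Coptidis. CEBPA and FOXA1 fell, while CEBPB and NR5A2 rose. Of the 8 members 6 were matched in RefSeq's promoter table (GRCh38.p14), all but FOXA2 and PROX1, and these 4 had the largest fold changes among the 6. Each line gives bases from the 250 before an annotated start that lie outside annotated exons, 5′ to 3′ on the strand of the gene. The CEBPA window is chr19:33302565-33302784 (minus strand) and the CEBPB window chr20:50190333-50190582 (plus strand). The FOXA1 window is chr14:37595349-37595499 (minus strand) and the printed NR5A2 window chr1:200042341-200042590 (plus strand). NR5A2 has a second window at its outermost start, chr1:200027460-200027601, which held no match and is not printed. Capitals mark matches to the motifs searched on both strands.
CEBPA: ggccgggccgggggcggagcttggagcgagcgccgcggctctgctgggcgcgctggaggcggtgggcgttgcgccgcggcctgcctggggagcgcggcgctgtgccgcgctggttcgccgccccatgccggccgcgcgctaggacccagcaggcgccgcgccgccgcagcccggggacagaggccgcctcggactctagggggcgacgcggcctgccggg
CEBPB: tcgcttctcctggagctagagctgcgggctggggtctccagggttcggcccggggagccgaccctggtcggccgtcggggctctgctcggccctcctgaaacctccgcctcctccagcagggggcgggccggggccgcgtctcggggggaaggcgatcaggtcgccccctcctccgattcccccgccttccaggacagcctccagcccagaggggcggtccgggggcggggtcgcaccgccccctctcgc
FOXA1: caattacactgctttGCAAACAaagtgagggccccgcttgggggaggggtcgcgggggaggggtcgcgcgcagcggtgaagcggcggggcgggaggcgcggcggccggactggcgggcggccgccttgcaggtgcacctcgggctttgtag
NR5A2: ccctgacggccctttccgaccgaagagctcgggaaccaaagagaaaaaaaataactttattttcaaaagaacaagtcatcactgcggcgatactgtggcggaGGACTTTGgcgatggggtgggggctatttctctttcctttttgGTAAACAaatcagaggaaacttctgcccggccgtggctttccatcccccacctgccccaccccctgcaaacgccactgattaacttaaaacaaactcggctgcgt

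The motifs were TGTTTAC and TGTTTGC for FOXA, TTGCNNAA for C/EBP, CAAAGTCC for HNF4A and AAGGTCA for NR5A2. The FOXA1 window held TGTTTGC on the reverse strand, 235 bases before the start. This motif occurs in 3.23% of 35116 windows of the same length. The printed NR5A2 window held TGTTTAC on the reverse strand 105 bases before the start and CAAAGTCC on the reverse strand 148 bases before it, which occur in 2.98% and 1.02% of windows. TTGCNNAA and AAGGTCA, in 9.05% and 3.44% of windows, were not found in the windows of the 6 members. A match describes the letters only. The full 250-base windows of CEBPA and CEBPB had a GC content of 81.2% and 75.6%.

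Positions are those of GENCODE 29 on GRCh38. HNF4A (ENSG00000101076) lies at chr20:44355700-44434596 on the plus strand and FOXA2 (ENSG00000125798) at chr20:22581005-22585455 on the minus strand. CEBPB (ENSG00000172216) is also on that chromosome, at chr20:50190734-50192689 on the plus strand. FOXA1 (ENSG00000129514) lies at chr14:37589984-37596059 on the minus strand. FOXA3 (ENSG00000170608) lies at chr19:45863989-45873797 on the plus strand and CEBPA (ENSG00000245848) at chr19:33299934-33302564 on the minus strand. PROX1 (ENSG00000117707) and NR5A2 (ENSG00000116833) lie on the plus strand of chromosome 1, at chr1:213983181-214041502 and chr1:200027602-200177424. The libraries were directional, but whether the authors' counting used strand is not stated in the sources used here. Reads of CEBPA and of its antisense neighbour AC008738.3 may therefore not be fully separated, and likewise those of FOXA1 and TTC6.

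In vehicle, per kilobase of annotated exon, HNF4A had the highest level, at 49.08 ± 1.256 CPM per kb (SD, n = 3). CEBPA followed at 47.27 ± 1.395, and the ranges of these 2 genes overlapped. FOXA1 stood at 27.67 ± 0.03468 CPM per kb and PROX1 at 16.8 ± 0.2227. FOXA3 was at 14.92 ± 0.803, FOXA2 at 12.14 ± 0.5707 and CEBPB at 10.47 ± 0.2544 CPM per kb. The vehicle ranges of neighbours from FOXA1 to CEBPB in this order did not overlap. NR5A2 was lowest, at 0.09446 ± 0.03623 CPM per kb, with 2 to 38 counts per library over all groups. The other 7 had at least 425 counts in every library, so the precision of NR5A2 is far below theirs.

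**Figure D1:**
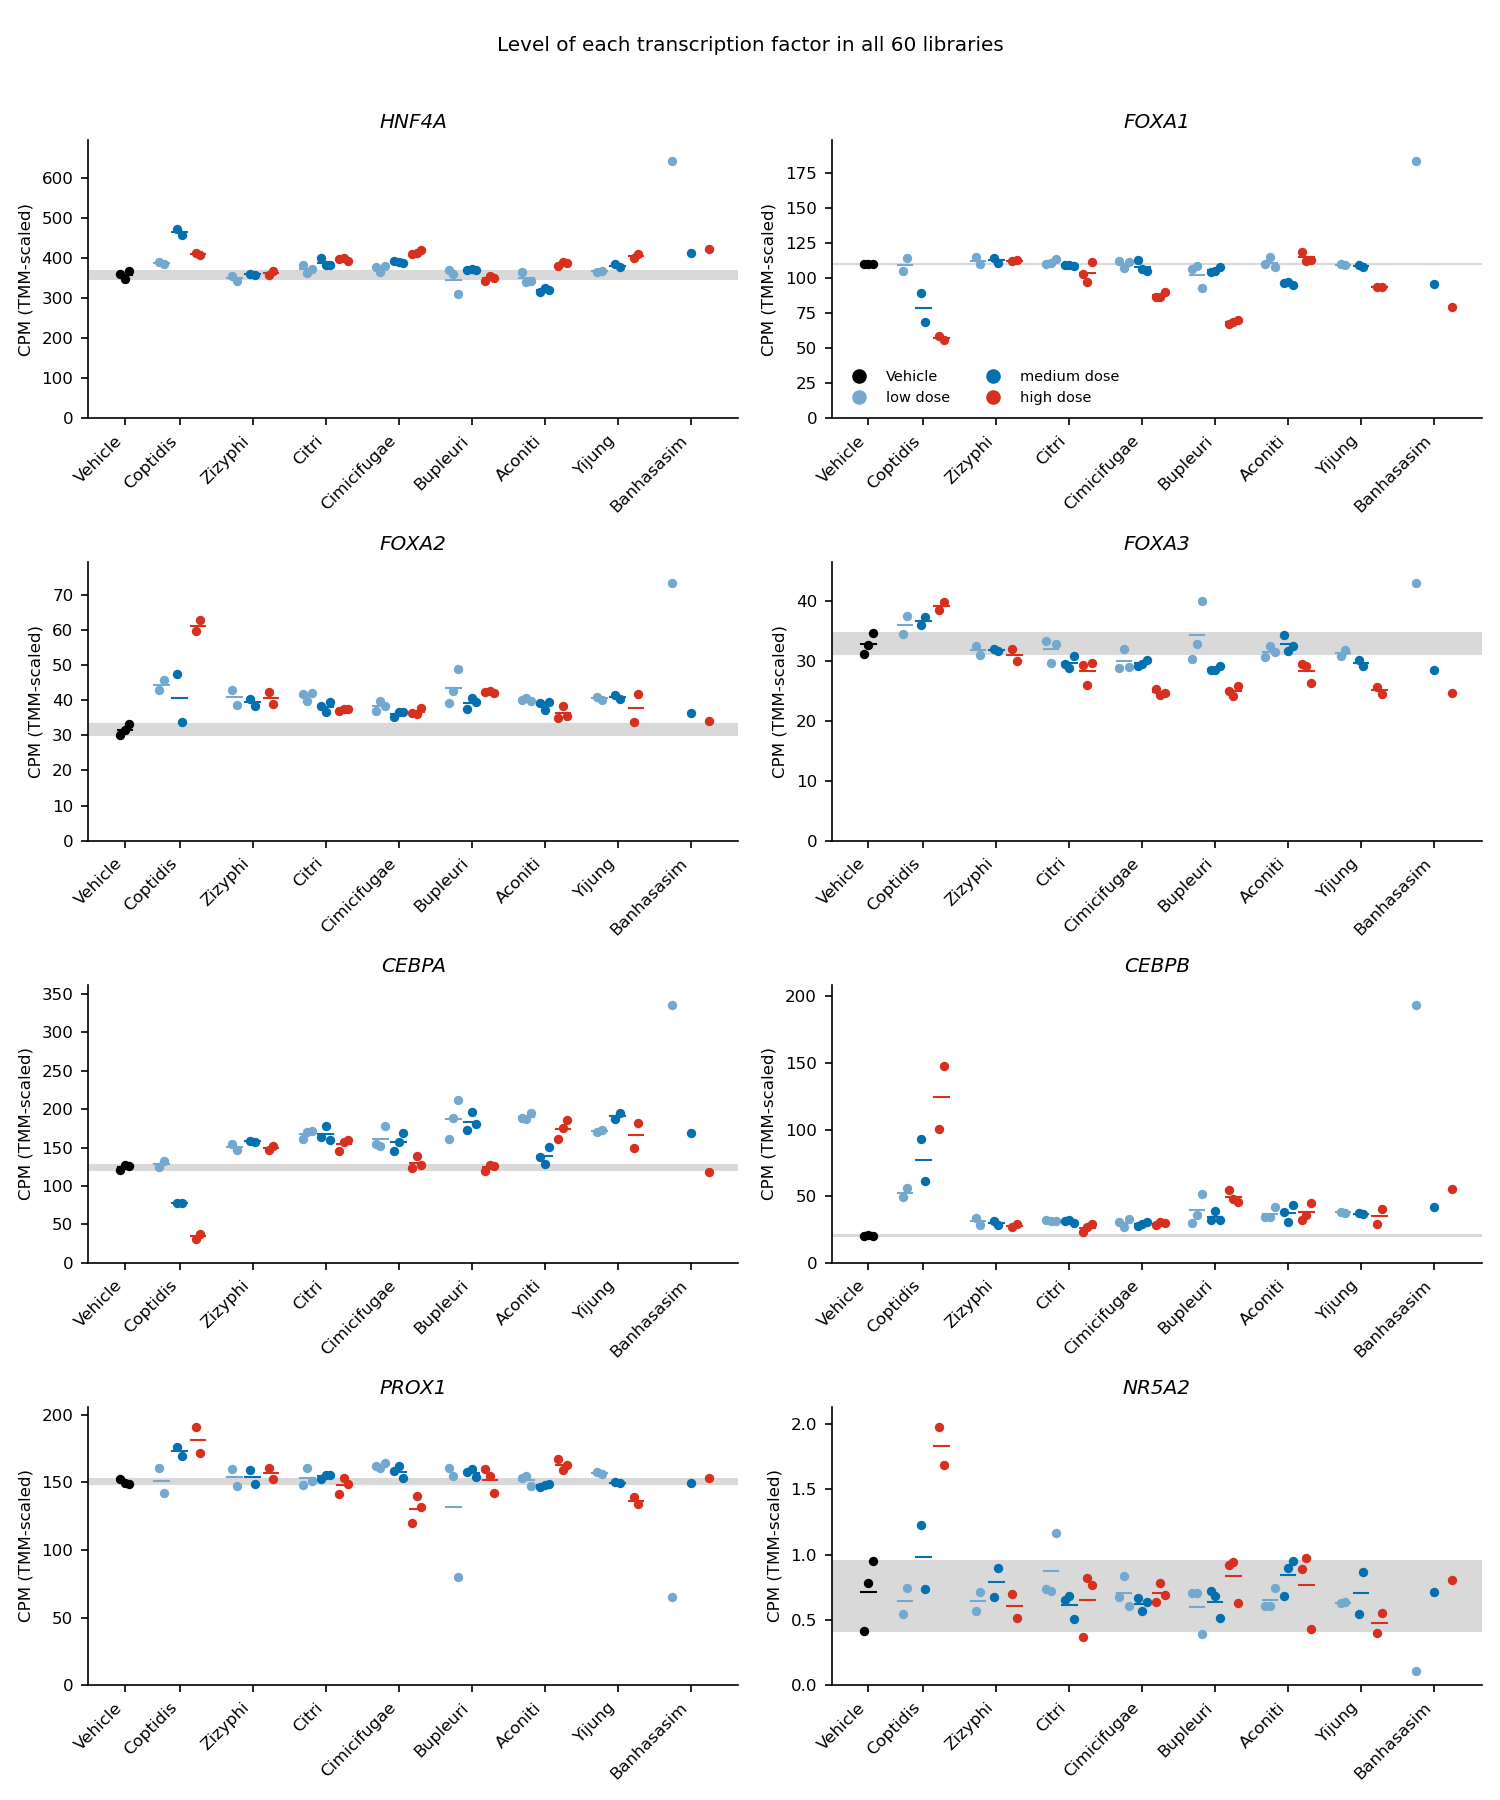
Level of each factor (CPM, TMM-scaled) in all 60 libraries, by extract, with 1 point per library, a line at each group mean and a grey band over the range of the 3 vehicle libraries. CEBPB and FOXA2 lie above the band in all 57 extract libraries, CEBPA and FOXA1 fall with the dose of Coptidis, and the single Banhasasim-tang low-dose library stands apart in every panel.

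Among the replicated groups Coptidis gave the largest change against vehicle of each factor but FOXA3, whose largest was -0.41 in the Cimicifugae high dose (log2). Members of a family moved apart under Coptidis. CEBPB and FOXA2 rose at the low dose and were higher again at the high dose. CEBPA and FOXA1 fell at the high and the medium dose and were not called at the low dose. At 280 µg/mL all 8 members were called against vehicle, 6 higher and 2 lower. In that comparison 67.5% of all tested genes were called (34.5% higher and 33% lower), so a call by itself sets the members apart little. The medians of the log2 fold change were 0.27 over the members and 0.00 over all tested genes. At the medium dose 6 of 8 were called (50.7% of all genes), at the low dose 3 of 8 (33.2%), and between the high and the low dose 5 of 8 (60.2%).

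CEBPB, the family member linked to stress and the acute phase, measured 20.21, 21.05 and 20.17 CPM in the vehicle libraries. It measured 49.11 and 55.9 CPM at 11.2 µg/mL of Coptidis, 93.34 and 61.55 at 56 µg/mL, and 100.7 and 148 at 280 µg/mL. Every Coptidis library was above every vehicle library, and the ranges of the 3 doses did not overlap. The log2 fold change against vehicle was 1.36 ± 0.18 (SE, adjusted p = 2.0e-07) at the low dose, 1.93 ± 0.18 at 56 µg/mL and 2.60 ± 0.18 (adjusted p = 2.8e-16) at the high dose. From low to high dose CEBPB rose by 1.25 ± 0.19 (log2, adjusted p = 2.8e-07).

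CEBPA, the family member of the mature hepatocyte, moved the other way. It measured 120.3, 127.3 and 125.5 CPM in vehicle, and 125.1 and 132.7 at the low dose of Coptidis. At the medium dose it measured 78.12 and 77.98 CPM, and at the high dose 31.02 and 38.1. The low dose overlapped vehicle, while the medium and high doses lay below every vehicle library. The log2 fold change was 0.06 ± 0.09 at the low dose (adjusted p = 0.675), -0.66 ± 0.09 at 56 µg/mL and -1.84 ± 0.10 at 280 µg/mL (adjusted p = 2.6e-21). From low to high dose CEBPA fell by 1.90 on the log2 scale (SE 0.10, adjusted p = 1.2e-20). As a result of these 2 changes the ratio of CEBPB to CEBPA CPM was 0.1647 ± 0.003721 in vehicle (SD, n = 3), 0.4069 ± 0.02042 at the low dose, 0.9921 ± 0.2866 at 56 µg/mL and 3.565 ± 0.4515 at 280 µg/mL (SD, n = 2 each). The ratio compares CPM of transcripts of unlike length and so shows the shift, not which protein is more abundant.

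FOXA1 measured 110.1, 110.1 and 110.3 CPM in vehicle, 105.1 and 114.2 at the low dose of Coptidis, 89.3 and 68.83 at 56 µg/mL and 59.13 and 56.12 at 280 µg/mL. The low dose lay around the vehicle level, and the 2 high-dose libraries were the lowest of all 60. The fall was 0.93 on the log2 scale both against vehicle (-0.93 ± 0.07, adjusted p = 5.6e-17) and against the low dose (-0.93 ± 0.07, adjusted p = 1.1e-15). FOXA2 measured 30.21, 31.45 and 33.17 CPM in vehicle, 42.86 and 45.65 at the low dose, 47.51 and 33.8 at the medium and 59.65 and 62.81 at 280 µg/mL. Its rise against vehicle was 0.96 ± 0.08 (log2, adjusted p = 3.8e-14) at the high dose, and 0.47 ± 0.09 from low to high dose (adjusted p = 1.3e-05). At the medium dose the 2 libraries differed, and without replicate 2 the change of FOXA2 was 0.10 (adjusted p = 0.407). The ratio of FOXA2 to FOXA1 CPM went from 0.2869 ± 0.01321 in vehicle to 1.064 ± 0.07807 at the high dose. FOXA3 measured 31.04, 32.53 and 34.55 CPM in vehicle and 38.45 and 39.73 at the high dose (0.26 ± 0.07, adjusted p = 0.00134). Scaled by library totals, which shifts the median of all genes to -0.11, FOXA3 was 0.15 above vehicle (adjusted p = 0.0696).

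NR5A2 measured 0.4133, 0.7796 and 0.9491 CPM in vehicle, 0.547 and 0.7475 at 11.2 µg/mL, 1.226 and 0.7406 at 56 µg/mL and 1.975 and 1.685 at 280 µg/mL of Coptidis. Both high-dose libraries were above all others of the series. The log2 fold change was 1.37 ± 0.30 against vehicle (adjusted p = 8.6e-05) and 1.52 ± 0.34 against the low dose (adjusted p = 1.6e-04). HNF4A measured 359.8, 349.2 and 367.5 CPM in vehicle. Under Coptidis it measured 391.1 and 386 at 11.2 µg/mL, 472.8 and 458 at 56 µg/mL and 412 and 407.3 at 280 µg/mL. It was thus highest at the medium dose, at 0.38 ± 0.04 (log2, adjusted p = 4.6e-10), and 0.19 ± 0.04 at the high dose (adjusted p = 1.6e-04). The direction of HNF4A at the high dose depended on the scaling, since offsets for GC content and length gave -0.09 (adjusted p = 0.0165).

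**Figure D2:**
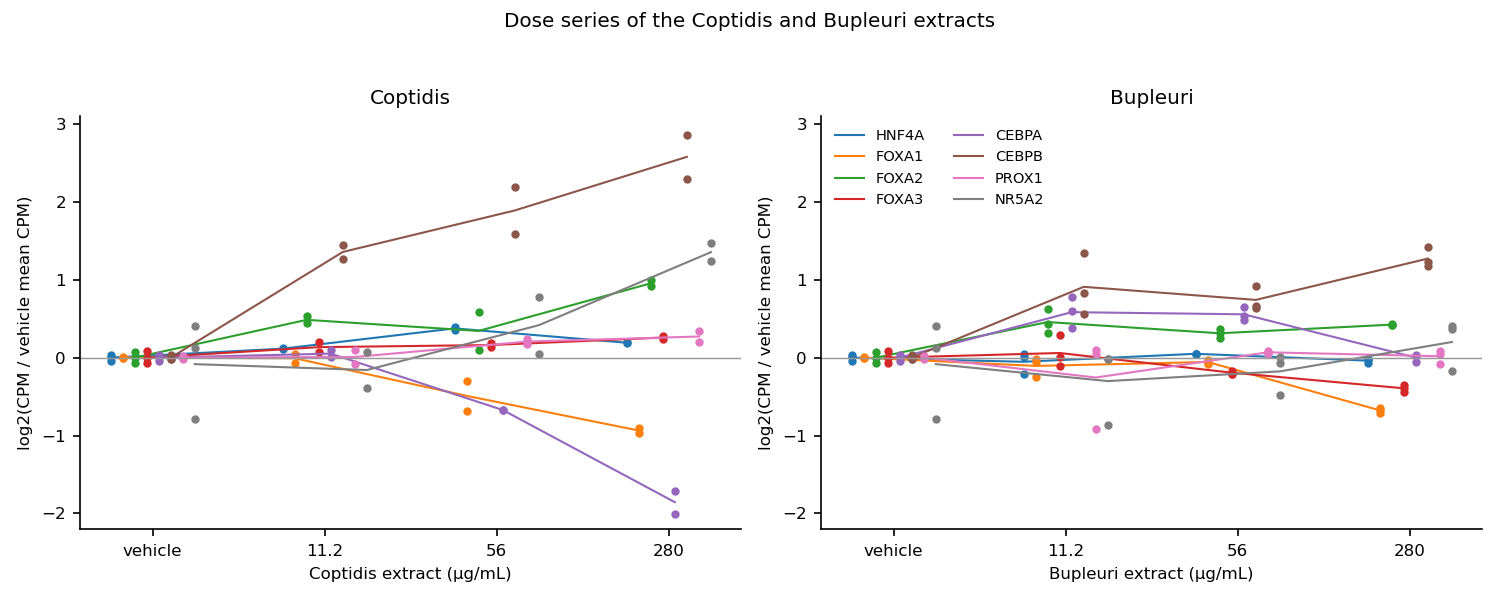
Log2 ratio of each factor's CPM to the vehicle mean by dose of the Coptidis and Bupleuri extracts (µg/mL), with 1 point per library and lines through the group means. Under Coptidis CEBPB and CEBPA part to 2.60 and -1.84 in the fitted log2 fold change at 280 µg/mL, and under Bupleuri the high dose has CEBPB up and FOXA1 and FOXA3 down.

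With Bupleuri at 280 µg/mL, FOXA1 and FOXA3 fell and CEBPB and FOXA2 rose against vehicle. FOXA2 was not higher than at the low dose (means of 42.39 and 43.55 CPM, log2 change -0.04, adjusted p = 0.708). Against vehicle 4 of 8 members were called, 2 higher and 2 lower, with 38.9% of all genes called. FOXA1 measured 67.48, 68.95 and 70.44 CPM at the high dose, 104.4, 105.4 and 108.2 at the medium and 106.3, 108.4 and 92.98 at the low dose. The 3 high-dose libraries were below all others of this extract. FOXA1 fell by 0.68 on the log2 scale against vehicle (SE 0.06, adjusted p = 9.5e-14) and by 0.58 against the low dose (SE 0.06, adjusted p = 1.2e-11). FOXA3, the third forkhead member, measured 24.9, 24.07 and 25.74 CPM at the high dose and 30.31, 32.77 and 39.84 at the low dose. Its log2 fold change was -0.40 ± 0.07 against vehicle (adjusted p = 2.7e-06) and -0.46 ± 0.06 against the low dose (adjusted p = 1.0e-07). CEBPB measured 54.6, 47.97 and 46.05 CPM at the high dose, all above vehicle (1.27 ± 0.17, adjusted p = 4.7e-08).

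CEBPA differed between the doses of Bupleuri rather than at the high dose alone. It measured 119.9, 127.5 and 125.8 CPM at the high dose, which overlapped vehicle (-0.00 ± 0.08 log2, adjusted p = 0.99). With offsets for GC content and length CEBPA was called lower than vehicle at 3 of 7 high doses, that of Bupleuri among them. It measured 173.2, 195.8 and 180.1 at the medium and 161.5, 188.6 and 212.3 at the low dose. From low to high dose it fell by 0.59 on the log2 scale (SE 0.08, adjusted p = 1.5e-08). Between these doses 3 of 8 members were called (FOXA1, FOXA3 and CEBPA, all lower), against 40.2% of all genes. Replicate 3 of the low dose is the library that stood apart in transcript length. Without it, CEBPB too was called higher at the high than at the low dose (0.57, adjusted p = 0.006, against 0.33 and 0.087 with it).

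With Cimicifugae and Yijung-tang at 500 µg/mL the same 2 FOXA genes fell and HNF4A rose slightly. Against vehicle FOXA3 changed by -0.41 ± 0.06 (log2) in Cimicifugae, -0.38 ± 0.07 in Yijung-tang and -0.40 ± 0.07 in Bupleuri, and FOXA1 by -0.33 ± 0.06, -0.23 ± 0.06 and -0.68 ± 0.06. For Cimicifugae 5 of 8 members were called against vehicle, where 22.2% of all genes were, and 4 of 8 between high and low dose, where 7.14% were. For Yijung-tang 6 of 8 were called against vehicle (17.3% of all genes) and 3 of 8 between high and low dose (7.29%). FOXA1 measured 86.89, 86.64 and 90.45 CPM at the high dose of Cimicifugae and 112.5, 107.3 and 111.2 at the low dose (-0.33 ± 0.05, adjusted p = 2.8e-05). The groups did not overlap. In Yijung-tang FOXA1 measured 93.72 and 93.38 CPM at the high and 110.2 and 109.1 at the low dose (-0.22 ± 0.07, adjusted p = 0.0343).

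FOXA3 measured 25.3, 24.29 and 24.55 CPM at the high dose of Cimicifugae and 28.82, 31.88 and 28.97 at the low dose (-0.28 ± 0.06, adjusted p = 0.00321). In Yijung-tang it measured 25.68 and 24.44 CPM against 30.74 and 31.83 (-0.31 ± 0.08, adjusted p = 0.00802). The high doses of both extracts lay below all their low-dose libraries. HNF4A rose between low and high dose by 0.14 ± 0.04 (log2) in Cimicifugae (adjusted p = 0.0151), by 0.15 ± 0.05 in Yijung-tang (adjusted p = 0.0472) and by 0.14 ± 0.04 in Aconiti (adjusted p = 0.00849). With offsets for GC content and length these changes were 0.15, 0.16 and 0.15, all called. With no filter on low counts they had the same size and none was called (adjusted p 0.234, 0.413 and 0.166). The call in Yijung-tang also ended with RLE scaling (0.0578) and library totals (0.0776), and that in Aconiti with the replicate block (0.157). CEBPA fell by 0.32 in Cimicifugae (SE 0.08, adjusted p = 0.00426). The calls of Yijung-tang rest on 2 libraries a group. Leaving out any 1 of the 4 libraries ended those of HNF4A and FOXA1 (adjusted p 0.122 to 0.249 and 0.143 to 0.188), and leaving out replicate 2 of either dose ended that of FOXA3 (0.136 and 0.111). In Cimicifugae the call of HNF4A ended without replicate 2 of the low dose (0.0904) or replicate 3 of the high dose (0.0774), and that of CEBPA without replicate 3 of the low dose (0.0753). In Aconiti that of HNF4A ended without replicate 2 of the low dose (0.0638).

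Aconiti, Citri and Zizyphi had the fewest members called between high and low dose. For Aconiti 4 of 8 were called at the high dose against vehicle (23.2% of all genes), and HNF4A alone between high and low dose (14.6%). At its medium dose (20.9% of all genes called) HNF4A was lower, at 316.8, 324.8 and 320 CPM (-0.16 ± 0.04, adjusted p = 0.00245), and so was FOXA1, at 96.58, 97.04 and 95.23 CPM (-0.19 ± 0.05, adjusted p = 0.00908). In both genes all 3 medium-dose libraries lay below all low- and high-dose ones. So did CEBPA, which measured 188.2, 187 and 194.3 CPM at the low, 137.4, 128.6 and 150.9 at the medium and 160.9, 175.4 and 186 at the high dose of Aconiti. Medium and low dose were not compared by a test. For Citri 4 of 8 were called at the high dose against vehicle (14.2%), and for Zizyphi FOXA2 alone (3.63%). Between high and low dose no member was called in either extract, against 0.78% and 0.006% of all genes. At an unadjusted p under 0.05 there were 2 members in Citri and 0 in Zizyphi, and DESeq2 called 0 in both. The log2 changes there ran for Citri from -0.43 ± 0.29 (NR5A2) to 0.09 ± 0.04 (HNF4A).

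**Figure D3:**
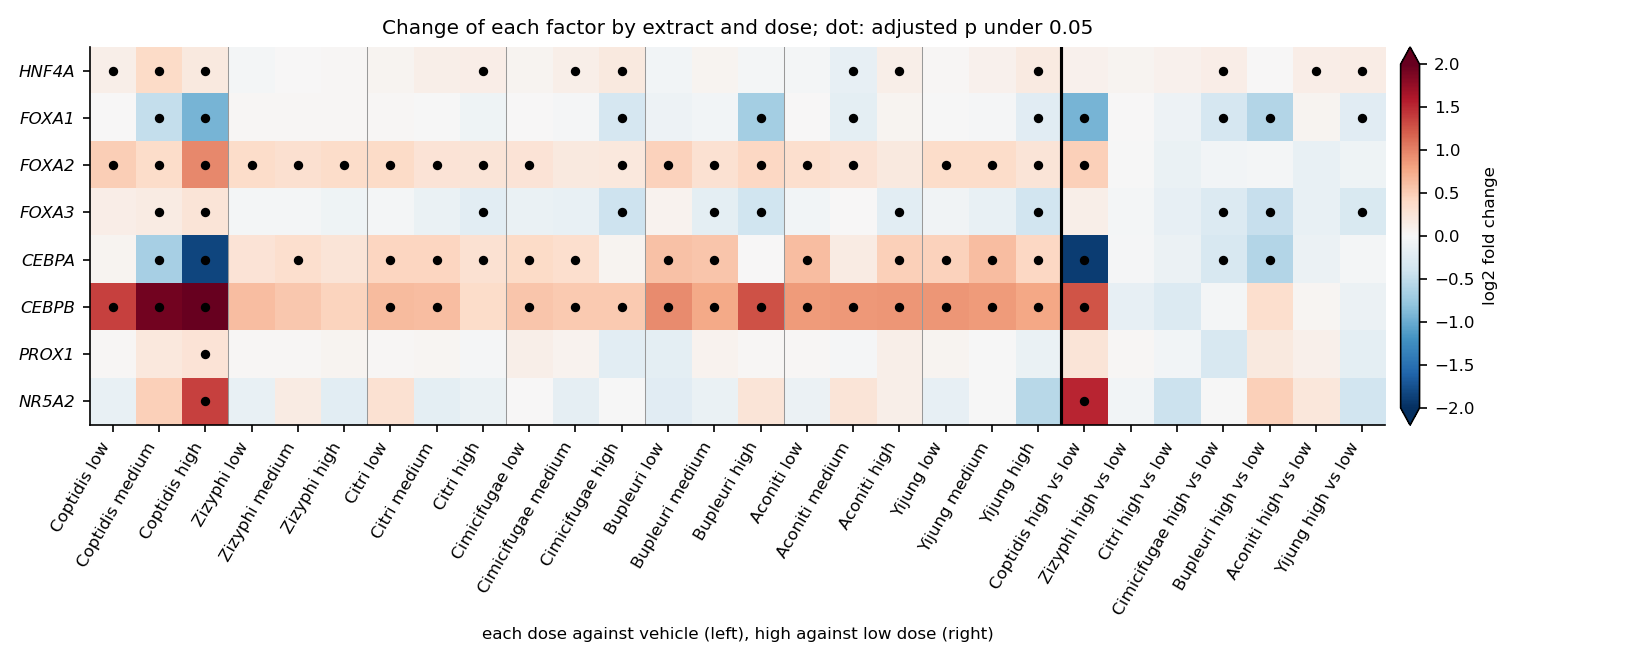
Log2 fold change of each factor (rows) for each dose against vehicle and for high against low dose (columns), with a dot where the adjusted p is under 0.05. FOXA2 and CEBPB are higher than vehicle in most columns, while the changes between doses lie mainly in Coptidis, Cimicifugae, Bupleuri and Yijung-tang.

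FOXA2, CEBPB and CEBPA were higher than in vehicle under nearly every extract, already at the low dose. FOXA2 and CEBPB lay above the highest vehicle library in 57 of 57 extract libraries, and 1.18% of tested genes did the same. CEBPA did so in 47 of 57, and in 18 of the 19 low-dose libraries. How many genes reach these 2 counts was not determined, so they do not by themselves set CEBPA apart from other genes. In all 19 low-dose libraries 679 of the 16675 tested genes lay above vehicle, with a median GC content of 62.28%. Over the 7 extracts with replicates, FOXA2 was called higher in 19 of 21 comparisons with vehicle, CEBPB in 17 and CEBPA in 13, with CEBPA lower in 2. At the low dose FOXA2 was called higher for all 7 extracts, CEBPB for 6 and CEBPA for 5. The shares of all genes called higher at the low dose were 17.1% for Coptidis, 1.73% for Zizyphi, 8.38% for Citri and 2.95% for Cimicifugae. They were 11.8% for Bupleuri, 5.51% for Aconiti and 1.2% for Yijung-tang. At the medium dose they were 26.1% for Coptidis, 1.19% for Zizyphi, 5.54% for Citri, 5.57% for Cimicifugae, 5.44% for Bupleuri, 10.6% for Aconiti and 3.6% for Yijung-tang. At the high dose the share called higher was 34.5% for Coptidis. For the other extracts the high-dose shares are given for both directions together. These were 3.63% for Zizyphi, 14.2% for Citri, 22.2% for Cimicifugae, 38.9% for Bupleuri, 23.2% for Aconiti and 17.3% for Yijung-tang. The FOXA2 count depended on the vehicle libraries: 10 of 21 were called without vehicle replicate 1, 13 without replicate 2 and 20 without replicate 3, with a positive log2 change in 21 of 21 each time. CEBPB was called in 13 or 14 and CEBPA higher in 12 or 13 without any 1 of them. The low-dose calls of FOXA2 and CEBPB in Cimicifugae and Yijung-tang, and of FOXA2 in Zizyphi, each ended without at least 1 library of the dose itself (adjusted p 0.0553 to 0.324). That of CEBPA in Yijung-tang ended without low-dose replicate 2 (0.0554). For example, CEBPB measured 38.22 and 37.65 CPM at 20 µg/mL of Yijung-tang and 34.19, 34.4 and 42.09 at 20 µg/mL of Aconiti, against at most 21.05 in vehicle.

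The GC content of the transcripts moved with this result in part. CEBPA and CEBPB transcripts have 65.9% and 66.2% GC and FOXA2 58.2%. FOXA3, with 60.8%, was called lower than vehicle in 6 of 21 comparisons and higher in 2. HNF4A has 52.8%, FOXA1 51.3%, PROX1 40.7% and NR5A2 40%. The 197 genes that lay above vehicle in all 57 extract libraries had a median of 62.57% GC, against 48.67% over all tested genes. With offsets that take GC content and length out of each library, FOXA2 was called higher in 17 of 21 comparisons and CEBPB in 12. CEBPA was then called higher in 5 and lower in 5. FOXA3 was then called lower in 12 and higher in 1, and 3 of the 12 were at the low dose, where it had no call without the offsets. Without vehicle replicate 3 and with no offsets, FOXA3 was called lower in 3. The sign stayed positive in 21 of 21 for FOXA2 and CEBPB. At the low dose all 7 calls of FOXA2 held, with log2 changes of 0.23 to 0.35, and 4 of the 6 calls of CEBPB. CEBPA at the low dose of Coptidis turned to -0.33 (adjusted p = 0.00285) and at the high dose of Cimicifugae to -0.24 (adjusted p = 0.021). The fall of CEBPA at the high dose of Coptidis was 2.07 on the log2 scale with the offsets (-2.07), and the rise of CEBPB 2.41.

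**Figure D4:**
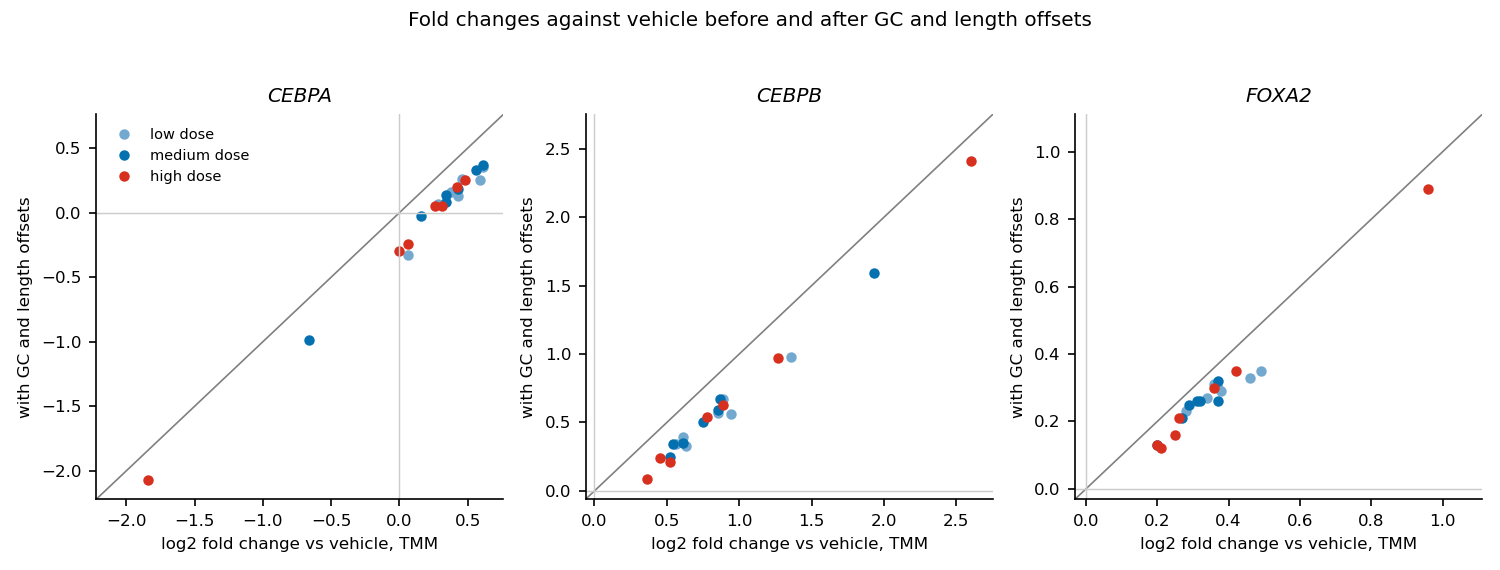
Log2 fold change against vehicle of CEBPA, CEBPB and FOXA2 with TMM scaling (x axis) and with offsets for GC content and transcript length (y axis), 1 point for each of 21 comparisons by dose, and a line of equality. The points lie below the line, and all of FOXA2 and CEBPB stay above 0.

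FOXA3 went the other way from FOXA2 at the high doses. It was called lower than vehicle for 5 of 7 extracts and higher for Coptidis. The 3 Citri libraries measured 29.26, 25.89 and 29.67 CPM (-0.21 ± 0.06, adjusted p = 0.0239) and those of Aconiti 29.49, 29.15 and 26.26 (-0.21 ± 0.06, adjusted p = 0.0145), all below vehicle. Shares of all genes called lower were 6.51% for Citri, 10% for Cimicifugae, 19.1% for Bupleuri, 12% for Aconiti and 7.84% for Yijung-tang. The Citri call ended without replicate 2 of the high dose (adjusted p = 0.172) or without vehicle replicate 2 or 3 (0.0568 and 0.126). The Aconiti call ended without replicate 3 of the high dose (0.111) or vehicle replicate 3 (0.0921). FOXA1 was called lower at 4 of 7 high doses (Coptidis, Bupleuri, Cimicifugae and Yijung-tang) and higher at none. Vehicle levels of FOXA1 spanned 110.1 to 110.3 CPM, a spread that 3 libraries cannot estimate well.

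PROX1 had the narrowest range of means over the 22 replicated groups, 130.4 to 181.3 CPM, a ratio of 1.39. It measured 152.3, 149.3 and 148.5 CPM in vehicle and 190.7 and 171.8 at the high dose of Coptidis, where it was called (0.28 ± 0.12, adjusted p = 0.0477). That call ended without any 1 of the 3 vehicle or 2 Coptidis high-dose libraries, with adjusted p of 0.0534 to 0.302. In replicate 3 of the Bupleuri low dose PROX1 was at 79.86 CPM, against 160.9 and 154.5 in the other 2, so that the group had 131.8 ± 45.06 CPM with it and 157.7 ± 4.542 without it. Without that library PROX1 was called in 5 of 21 comparisons with vehicle (3 higher and 2 lower) in place of 1.

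Without that library PROX1 was also called in 3 of 7 comparisons of high with low dose in place of 0. It was lower in Cimicifugae (-0.32, adjusted p = 1.5e-07) and in Yijung-tang (-0.20, adjusted p = 0.00993), and higher in Coptidis (0.25, adjusted p = 1.1e-04). With all libraries and the offsets for GC content and length, PROX1 was called lower in Cimicifugae (-0.26, adjusted p = 0.00163) and in neither Yijung-tang (-0.17, adjusted p = 0.125) nor Coptidis (0.07, adjusted p = 0.41). With the replicate block and the offsets the Coptidis value was 0.06 (adjusted p = 0.183). In Cimicifugae PROX1 measured 119.7, 139.8 and 131.7 CPM at the high and 162.1, 160.4 and 164.6 at the low dose. In Yijung-tang it measured 139.3 and 133.8 against 157.5 and 156. In both extracts the high dose lay below every low-dose library. In Coptidis it measured 190.7 and 171.8 against 160.5 and 141.9.

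The 2 extracts of a set were compared in their change from low to high dose, which leaves out the vehicle libraries. Doses in µg/mL differed between the extracts of sets 11 and 13. For Coptidis minus Zizyphi 5 of 8 members were called, against 49.3% of all genes. For Bupleuri minus Aconiti 3 of 8 were called, against 24.4%. The largest difference was that of CEBPA, which changed by -1.90 ± 0.10 (log2) in Coptidis and by -0.02 ± 0.09 in Zizyphi, a difference of -1.88 ± 0.14 (adjusted p = 9.7e-16). CEBPB differed by 1.40 ± 0.27 (adjusted p = 3.8e-05) and FOXA1 by -0.92 ± 0.10 (adjusted p = 4.2e-11). For Citri minus Cimicifugae 0 of 8 were called (1.33% of all genes), with 1 at an unadjusted p under 0.05 (FOXA1, 0.23 ± 0.08) and 0 by DESeq2. Without replicate 3 of the Bupleuri low dose FOXA1 (0.23, adjusted p = 0.0346) and PROX1 (0.27, adjusted p = 0.00535) were called in this last comparison.

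**Figure D5:**
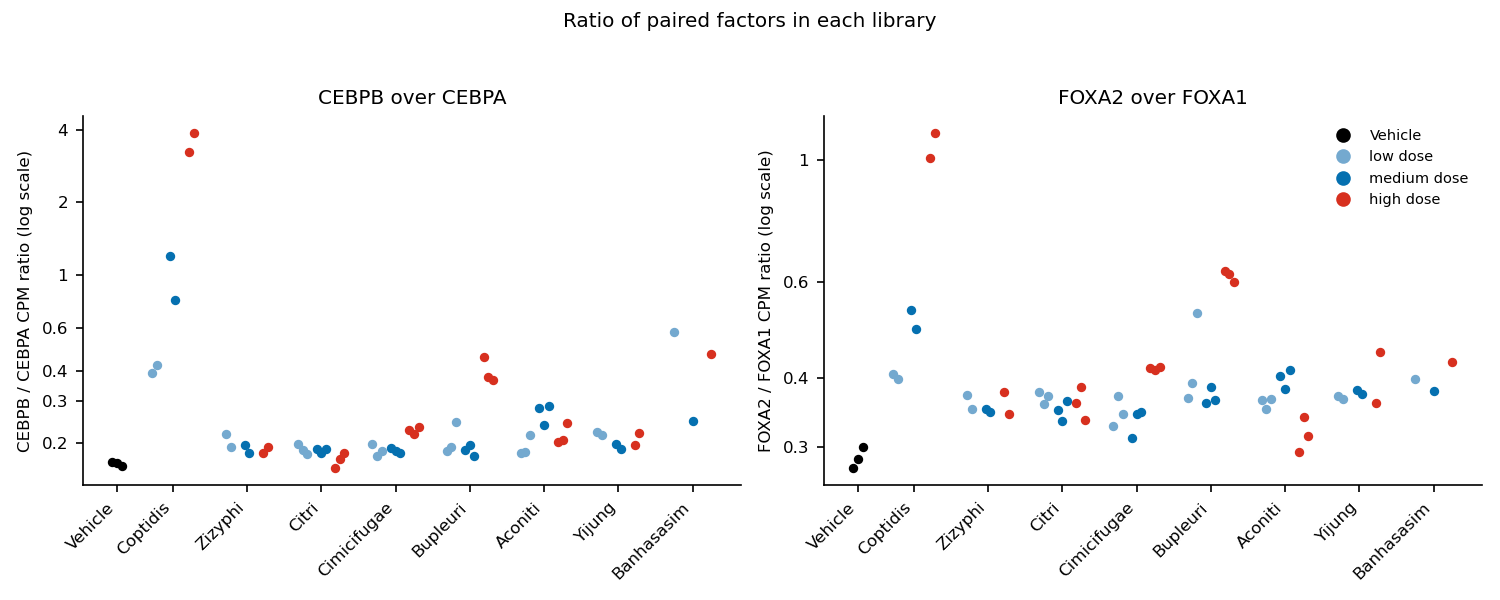
Ratio of CEBPB to CEBPA CPM and of FOXA2 to FOXA1 CPM (log axes) in each library, by extract and dose. The CEBPB to CEBPA ratio rises from 0.1647 in vehicle to 3.565 at the high dose of Coptidis, and the high dose of Bupleuri stands above its other doses in both panels.

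Banhasasim-tang had 1 library a dose and no test. At 500 µg/mL CEBPB measured 55.11 CPM and at 100 µg/mL 41.77, log2 ratios to the vehicle mean of 1.43 and 1.03. CEBPB was the only member past 2-fold in these 2 libraries, where 4.89% and 3.2% of all genes were. FOXA1 was at 79.69 CPM and FOXA3 at 24.61 at the high dose, below the vehicle libraries. In the low-dose library, which stood apart, 37.1% of all genes were past 2-fold. There CEBPB was at 193.4 CPM, CEBPA at 335.1, FOXA2 at 73.44 and HNF4A at 643.6, while PROX1 was at 65.31 and NR5A2 at 0.1121 from 2 counts.

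Most textbook target genes of HNF4A were lower at the high dose of Coptidis, where HNF4A itself was 0.19 higher, or 0.09 lower (-0.09) with the offsets. Of 19 listed genes 18 were tested, and at the high dose 14 were lower and 0 higher, where 33% of all genes were lower and 34.5% higher, with a median log2 fold change of -0.51 against 0.00 over all genes. CYP8B1, which makes the 12-hydroxylated bile acids, fell from 2.576 CPM to 0.4645 (-2.45 ± 0.31, adjusted p = 1.7e-09). CYP7A1, the rate-limiting enzyme of bile acid synthesis, went from 0.6446 to 0.1039 CPM (-2.58 ± 0.70, adjusted p = 0.00113). It had at most 24 counts in any library, so the size of its change is uncertain. OTC, an enzyme of the urea cycle, had 0 counts in the 2 high-dose libraries and 35 in vehicle, at least 6.627-fold lower at a floor of 3 counts over the group. With OTC at that bound the median stayed at -0.51. In high against low dose 13 of 18 were lower and 0 higher (60.2% of all genes called). In Bupleuri 12 of 18 were lower and 0 higher between high and low dose (40.2% of all genes called, median -0.33). Without low-dose replicate 3, the library that stood apart, 9 were lower and 1 higher (35.1%, median -0.32). With all libraries, at the high dose of Bupleuri against vehicle 9 were lower and 1 higher (38.9%, median -0.24). APOC3, an apolipoprotein, changed between high and low dose of Bupleuri by -1.11 ± 0.10 (adjusted p = 1.1e-11), and by -0.88 ± 0.09 without low-dose replicate 3. Between high and low dose of Yijung-tang 6 of 18 were lower and 0 higher (7.29% of all genes called, median -0.21). Between those of Cimicifugae 0 were lower and 3 higher (7.14%, median 0.02). At the medium dose of Aconiti HNF4A itself was lower than vehicle (-0.16). There 11 of 18 listed genes were lower and 0 higher than vehicle (20.9% of all genes called, median -0.31).

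Of 10 listed targets of FOXA factors, 5 of which are also in the HNF4A list, 7 were lower and 2 higher at the high dose of Coptidis (67.5% of all genes called, median -0.48). TTR, the transthyretin carrier protein, fell by 1.81 on the log2 scale (SE 0.11, adjusted p = 1.7e-18). IGFBP1, an insulin-like growth factor binding protein, rose by 7.21 ± 0.17 (log2), from 40.95 to 6064 CPM. IGFBP1 was also called higher at the high doses of Bupleuri (3.14 ± 0.14), Cimicifugae (1.69 ± 0.14), Aconiti (1.41 ± 0.14), Yijung-tang (1.03 ± 0.15) and Citri (0.76 ± 0.14). In Bupleuri between high and low dose 6 of the 10 were lower and 2 higher (40.2% of all genes called, median -0.28), and 6 and 1 without low-dose replicate 3.

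Of 14 listed targets of C/EBP factors, 6 are also in the FOXA list and 3 in the HNF4A list, so the lists are not separate. The 12 tested split at the high dose of Coptidis, with 5 lower and 4 higher (median -0.07), a count near the 67.5% of all genes called. HP, the acute phase protein haptoglobin, fell from 188.8 to 17.72 CPM (-3.41 ± 0.11, adjusted p = 6.7e-30). TRIB3, a pseudokinase of the integrated stress response, rose from 121.1 to 515.7 CPM (2.09 ± 0.07, adjusted p = 3.2e-29). CRP and SAA1 were not tested, with at most 0 and 2 counts. The 11 listed targets of NR5A2 include PROX1, itself a member, and 4 of them are in the HNF4A list. Of the 11, 6 were lower and 3 higher (67.5% of all genes called, median -0.28). Among them NR0B2, the small heterodimer partner that represses NR5A2, rose from 42.91 to 103 CPM (1.27 ± 0.09, adjusted p = 6.4e-16).

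Of 15 listed inhibitors, coactivators and partners of these factors, 10 were higher and 4 lower at the high dose of Coptidis (median 0.57). Of all tested genes 34.5% were higher and 33% lower there. TRIB1, which directs the degradation of C/EBP-alpha protein, went from 60.83 to 255.8 CPM (2.07 ± 0.06, adjusted p = 5.5e-31). DDIT3, a C/EBP family member that blocks DNA binding of its partners, went from 13.17 to 40.3 CPM (1.62 ± 0.11, adjusted p = 6.1e-17). In Bupleuri TRIB1 was higher by 0.77 ± 0.06 against vehicle and by 0.82 ± 0.06 against the low dose, while over the list 4 were higher and 0 lower between these doses, a smaller share than the 40.2% of all genes called. Without low-dose replicate 3 these were 4 and 2. In Cimicifugae between high and low dose 0 were higher and 1 lower (7.14% of all genes called).

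Of 5 listed noncoding neighbours of the members, 4 were lower and 0 higher at the high dose of Coptidis, where 33% of all genes were lower. LINC00261, transcribed next to FOXA2, fell under Coptidis while FOXA2 rose. It measured 79.53 ± 2.453 CPM in vehicle (n = 3), and 54.63 ± 3.411, 42.27 ± 1.267 and 38.72 ± 1.24 at the low, medium and high dose (SD, n = 2 each). The change at the high dose was -1.04 ± 0.08 (log2, adjusted p = 1.7e-15). LINC00261 was also lower between low and high dose in Bupleuri (-0.48 ± 0.07), Yijung-tang (-0.45 ± 0.08), Cimicifugae (-0.32 ± 0.07) and Citri (-0.27 ± 0.07). CEBPA-DT, the divergent transcript of CEBPA, went with its neighbour, from 6.974 ± 0.7882 CPM in vehicle to 2.167 ± 0.5365 at the high dose of Coptidis (-1.68 ± 0.16, adjusted p = 8.0e-13). AC008738.3, antisense to CEBPA, went from 18.96 ± 1.732 to 3.709 ± 0.04547 CPM (-2.35 ± 0.49, adjusted p = 5.7e-05). Part of the AC008738.3 value could come from CEBPA reads if the counting did not use strand.

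The genes whose level followed each member most closely were found by the Pearson correlation of group means over the 22 replicated groups, among 10651 genes. The groups share their sets and one vehicle group, and Coptidis dominates the range, so these are descriptions. CEBPA was followed by AGMAT (0.988), DUT (0.979) and IMP3 (0.977), and without the Coptidis groups, over 19, by AGMAT (0.906), NR2F6 and ZFP36L2. FOXA1 was followed by TTC21B (0.980), CRYBG1 (0.969) and SCN1A, and without Coptidis by DGKK (0.982), RNF144B (0.975) and CRYBG1 (0.973). CEBPB was followed by ISL2 (0.961), SEMA4C and ZNF579, and without Coptidis by HES4 (0.926). AGMAT and CRYBG1 thus stayed among the 3 closest genes with and without Coptidis, and for HNF4A and PROX1 so did IPO13 (0.815 and 0.840) and BRAF (0.871 and 0.896). For FOXA2 the closest gene was TLE1 (0.917) and without Coptidis ZNF579 (0.869), and for FOXA3 CTDSP2 (0.884) and C4BPA (0.880). NR5A2 was followed by TMEM45B (0.931), a value that rests on few counts.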

How the data were processed

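RNA was read as 100 bp paired ends from directional libraries of HepG2 cells. The authors deposited expected counts from RSEM for each gene, without normalization. RSEM 1.3.3, STAR 2.7.3a, Trim Galore 0.6.5, FastQC 0.11.9 and GRCh38 are listed in the submitters' processing notes, while no source used here names the annotation release. The table had 267 columns, and 207 that match no labelled sample were not read. Expected counts (8.75% not whole) were rounded. RSEM splits reads that match several genes, so overlapping genes are less certain.

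Tests used edgeR 4.0.16 (robust glmQLFit, glmQLFTest, R 4.3.3) with TMM scaling. The 57 libraries of 22 replicated groups entered 1 fit with 1 coefficient per group and 35 residual degrees of freedom. The common BCV, the fitted variation between libraries of a group beyond counting noise, was 6.14%, and it can be of technical origin. A filter by group kept 16675 genes, and 44000 were not tested. Benjamini-Hochberg adjustment ran over all tested genes of each of 31 comparisons. The SE is the absolute log2 fold change over the square root of F. Banhasasim-tang was given as log2 ratios with a prior count of 2. The scripts were tested on simulated data.

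The members and lists were chosen with earlier results of these data known. Every member is named, with the 3 members of each list that changed most among those called, and the 3 genes most correlated with each member. Some genes that this rule takes are not reported here. A few genes of the lists are also named because their values were low or they stood out, after their values were seen. Alternatives were DESeq2 1.42.0, RLE scaling, library totals, no filter, a replicate block, separate fits and leaving out each library. For comparisons between doses or between extracts, the block was fitted on the replicated libraries of each set alone. The block and this smaller fit cannot be told apart there. Offsets for GC content and length (spline with 4 degrees of freedom), also with the block, and list counts without Bupleuri low replicate 3 were added after seeing the data. No 2 libraries held identical values.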

Additional observations from a re-analysis of the deposited data

Results flagged for a closer look

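The change from low to high dose differed between the 2 extracts of a set for 5 members in set 11 and 3 in set 13, by edgeR's test of the difference itself. Doses in µg/mL differed between the extracts of each pair. For Coptidis minus Zizyphi, the log2 difference was -1.88 ± 0.14 (SE) for CEBPA (adjusted p = 9.7e-16), -0.92 ± 0.10 for FOXA1 (adjusted p = 4.2e-11), 1.40 ± 0.27 for CEBPB (adjusted p = 3.8e-05) and 0.48 ± 0.13 for FOXA2 (adjusted p = 0.0014). For NR5A2 it was 1.58 ± 0.51 (adjusted p = 0.00877), and 1.34 without Coptidis low replicate 2 (adjusted p = 0.0558). In these 5 genes the change lay in Coptidis, while Zizyphi had no member called between doses. For Bupleuri minus Aconiti, the difference was -0.63 ± 0.08 for FOXA1 (adjusted p = 2.2e-08) and -0.47 ± 0.11 for CEBPA (adjusted p = 7.4e-04). For FOXA3 it was -0.31 ± 0.09 (adjusted p = 0.00895), and -0.19 without Bupleuri low replicate 3 (adjusted p = 0.073).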

How the results depend on the processing

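Over 248 pairs of member and comparison, RLE scaling kept direction and side of the threshold in 244, library totals in 239, the replicate block in 236, no filter in 218, separate fits in 216, and GC and length offsets in 207. DESeq2 kept 229 of 235, and leaving out 1 library 1564 of 1704. Library totals gave 5 members called for Coptidis high against vehicle (8 in the report) and -0.00 for HNF4A at the low dose. For Zizyphi high against vehicle (1) there were 2 with DESeq2, 3 with no filter and 3 with separate fits. With the offsets Citri high against vehicle (4) had 2. Between high and low dose, Citri (0) had 1 each with no filter, the block, separate fits and the offsets. Bupleuri (3) had 5 with no filter and 5 with the offsets. Aconiti (1) had 0 with no filter, 0 with the block, 4 with separate fits and 2 with the offsets. Yijung-tang (3) had 1 with no filter. Citri minus Cimicifugae (0) had 2 with the block and 2 with separate fits. The block with offsets gave 26 calls between doses in all (16), 3 for Citri, 5 for Bupleuri, 14 differences between extracts (8) and 3 for Citri minus Cimicifugae. The cause was not tested.

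With the offsets 23 of 248 signs turned, 17 of them called in neither fit. Among the 6 others HNF4A was -0.09 in Coptidis high against vehicle, and between doses -0.11 in Coptidis, -0.12 in Bupleuri and -0.14 in Coptidis minus Zizyphi, or -0.12, -0.13 and -0.15 with the block added. CEBPA was -0.33 in Coptidis low and -0.24 in Cimicifugae high against vehicle with the offsets.

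Leaving out 1 library gave 24 to 37 calls at the high dose against vehicle (32), 18 to 28 at the medium (25) and 14 to 21 at the low (19). By extract the high dose had 7 to 8 in Coptidis, 0 to 2 in Zizyphi, 1 to 4 in Citri, 3 to 6 in Cimicifugae, 4 in Bupleuri, 2 to 6 in Aconiti and 2 to 7 in Yijung-tang. Between doses it gave 13 to 21 (16), with 5 to 6 in Coptidis, 0 in Zizyphi and Citri, 3 to 5 in Cimicifugae, 3 to 4 in Bupleuri, 0 to 2 in Aconiti and 0 to 4 in Yijung-tang. Differences between extracts numbered 7 to 11 (8), with 4 to 6 in set 11, 0 to 2 in set 12 and 3 to 4 in set 13.

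As a check of pairing, deviations from the group mean correlated between libraries of the same number at -0.0509 to 0.136. No comparison with 3 pairs had each above 0.1. The highest value was in Zizyphi high against low dose, which has 2 pairs. Such low values cannot exclude shared handling of libraries of the same number, and the main fit had no pairing. NR5A2, with 2 to 38 counts, is limited by depth.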

Other observations

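Other liver transcription factors (27 listed, all tested) had 12 lower and 6 higher than vehicle at the high dose of Coptidis, where 67.5% of all tested genes were called, so that the count is near that of all genes. Against the low dose 14 were lower and 6 higher (60.2% of all genes called). NR1H4, the bile acid receptor FXR, fell from 73.02 to 6.306 CPM (-3.53 ± 0.09 log2, edgeR adjusted p = 2.1e-32). The related PAR leucine zipper factors DBP and HLF, which follow the circadian clock, also fell. DBP went from 4.633 to 0.904 CPM (-2.35 ± 0.21) and HLF from 461.1 to 137.9 CPM (-1.74 ± 0.05). Between low and high dose NR1H4 was also lower in Bupleuri (-0.74), Aconiti (-0.49 ± 0.06) and Cimicifugae (-0.47 ± 0.06).

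CREB3L3, a liver factor released from the endoplasmic reticulum, was higher at the high than at the low dose in Bupleuri (1.19 log2), Cimicifugae (0.76), Yijung-tang (0.76) and Aconiti (0.73). Under Bupleuri it went from 9.274 CPM in vehicle to 17.1 at the high dose (0.88 ± 0.11). GATA6, a factor of early endoderm, was lower at the high dose in Citri (-0.68), Yijung-tang (-0.66) and Cimicifugae (-0.57).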
